A study of Homo sapiens and Mus musculus with 36 samples.

Results

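The genes described are 34 named genes of autophagy and the lysosome, followed in cholestatic mouse liver and in a human liver cell line exposed to cholestatic drugs. They were taken by name from a list, and each gene was read from 1 probe set, the one with the highest mean level over all arrays of its platform. All 34 were measured among 19775 genes on the human arrays, and 33 among 18193 genes on the mouse arrays, where Optn was not analysed here. Values are log2 RNA levels.

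The mouse arrays held whole liver of Sv129 mice 6 weeks after surgery, from 6 animals after ligation of the common bile duct (CBDL) and from 6 sham animals, in which the duct was isolated without a ligature. The human arrays held cells of HepaRG, a hepatoma line whose cells take on features of hepatocytes and of bile duct cells, after 72 h with atazanavir at 60 µM (an antiviral protease inhibitor), cyclosporin A at 20 µM (a calcineurin inhibitor), nefazodone at 30 µM (an antidepressant), the same drugs each with a bile acid mix concentrated 50 times, the mix alone, or the vehicle (control). Each HepaRG group had 3 cultures. The series text speaks of 3 HepaRG batches of this 1 line, and the labels do not say which culture came from which batch.

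In autophagy, a membrane grows around a portion of the cytoplasm, closes, and fuses with a lysosome, where acid hydrolases digest the content. Proteins of the ATG8 family are coupled to the lipid of that membrane and bind cargo receptors such as SQSTM1 (p62), which is itself degraded in the process. The transcription factors TFEB and TFE3 bind a short promoter element, named CLEAR, in front of many lysosomal genes. The liver relies on this system to clear damaged organelles, protein aggregates and stored lipid. RNA levels give neither the amount of protein nor the rate at which cargo is degraded.

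Promoter sequence, from 250 bases before to 50 after the transcription start in RefSeq (human build GRCh38.p14), was in the table for 29 of the 34 genes, in 40 promoters. The 8-letter core of the CLEAR element, TCACGTGA, which reads the same on both strands, was present in 5 of these 40 promoters (12.5%) and in 344 of 35116 promoters of all genes (0.98%). The 5 promoters were those of LAMP1, ATP6V0D1, MCOLN1, CTSA and ATG3. A match is a description of the sequence and not evidence of binding. The stretches around the core are printed 5′ to 3′ on the strand of the gene, with the core in capitals.
LAMP1: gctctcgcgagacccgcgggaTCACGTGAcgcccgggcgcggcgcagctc
ATP6V0D1: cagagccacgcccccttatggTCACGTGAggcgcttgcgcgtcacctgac
MCOLN1: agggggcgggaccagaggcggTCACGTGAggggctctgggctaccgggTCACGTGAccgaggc
CTSA: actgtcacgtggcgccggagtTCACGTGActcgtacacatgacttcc
ATG3: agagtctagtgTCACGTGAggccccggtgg
The LAMP1 stretch is chr13:113297189-113297238 on the plus strand, with the core 29 bases upstream of the start. A second core, 2 bases upstream in LAMP1, runs across the start. In ATP6V0D1 the stretch is chr16:67481189-67481238 on the minus strand, with the core 60 bases upstream. MCOLN1 has 2 cores, 42 and 15 bases upstream, in chr19:7522561-7522623 on the plus strand. The CTSA stretch is chr20:45891288-45891334 on the plus strand, with the core 26 bases upstream. In ATG3 the core begins at base 5 of the transcript, in chr3:112561940-112561969 on the minus strand. The shorter E-box CACGTG, which lies inside that core, was in 6 of the 40 promoters, the added one being CTSD, and in 7.26% of all promoters. TGATGNAA, the core of the amino acid response element, was in 0 of the 40 and in 3.62% of all promoters (both strands searched). TGACNNNGC, the core of the antioxidant response element, was in 9 of the 40 (22.5%) and in 13.3% of all promoters (both strands).

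Within groups, the lowest correlation across genes was 0.981 between mouse arrays and 0.991 between HepaRG arrays. None of the 34 genes lay in the dimmest 1 in 3 genes of either platform. Hepatocyte markers averaged 14.07 to 14.12 in CBDL livers and 14.02 to 14.12 in sham livers. In HepaRG cells the same kind of average was 8.49 to 8.89 with atazanavir, 9.37 to 10.27 with cyclosporin A, 9.29 to 9.98 with nefazodone and 10.81 to 11.32 with the mix, against 11.57 to 11.95 in control. One sham liver (replicate 2) stood at 9.28 for intestinal markers, where the other livers lay between 5.39 and 5.92, and 1 CBDL liver (replicate 1) stood at 8.30 for neutrophil markers, where the others lay between 5.41 and 5.95. Counts in CBDL livers are therefore also given without these 2 livers.

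**Figure D1:**
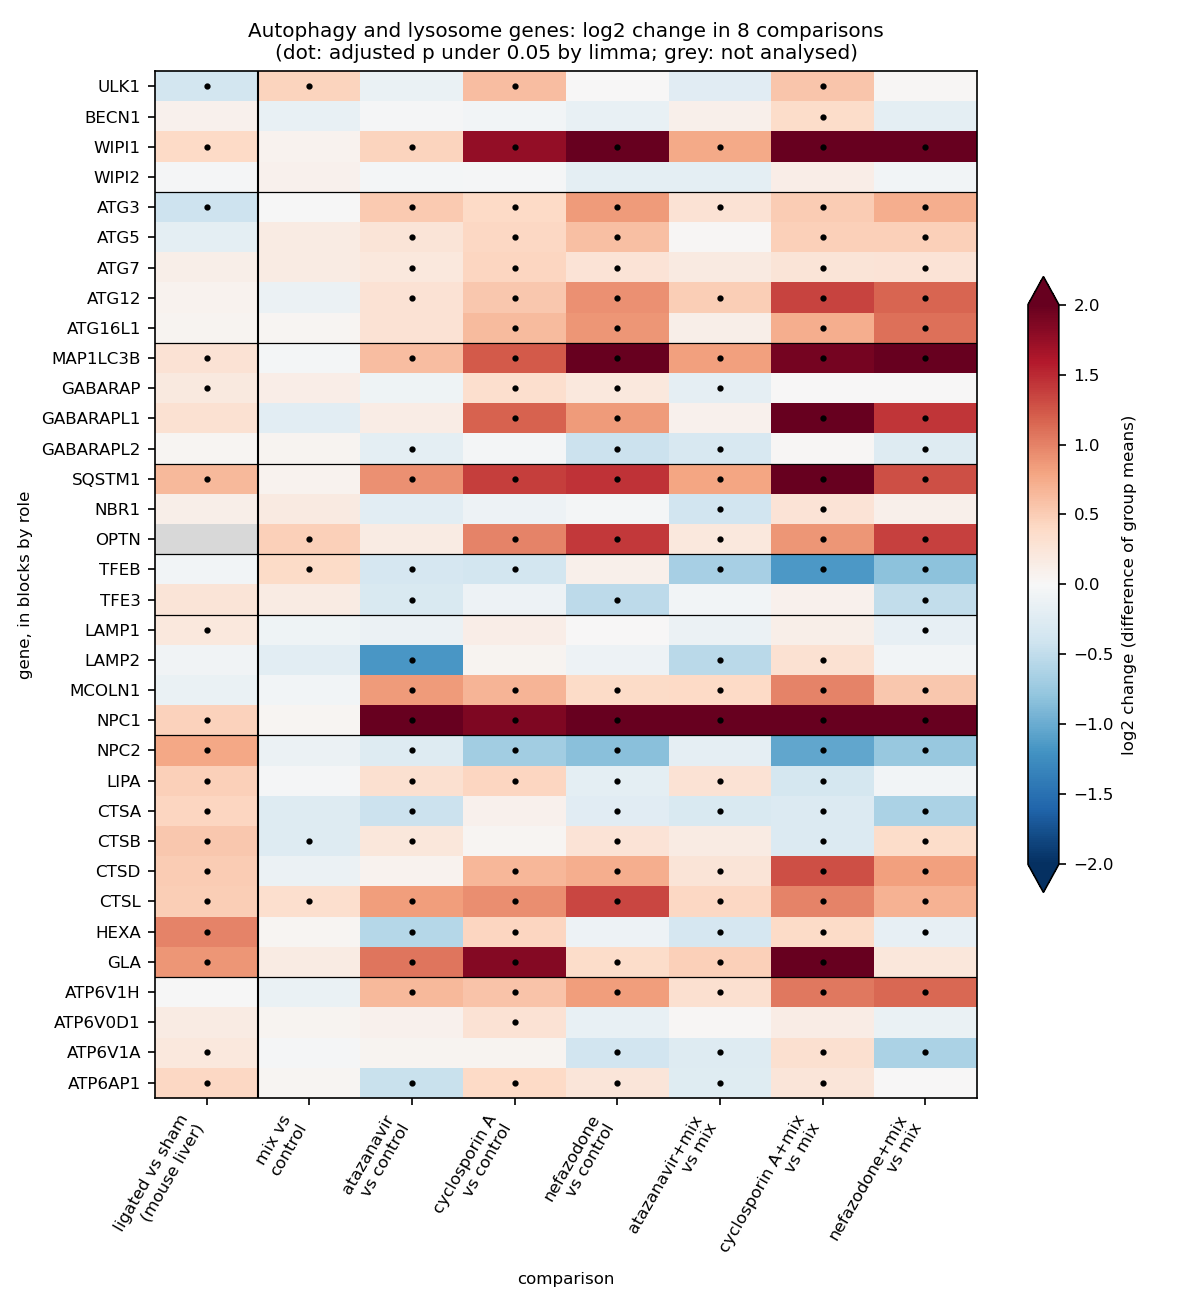
Log2 change of each of the 34 genes (rows, grouped by role) in each comparison (columns), with red for higher and blue for lower in the group named first, and a mark where the adjusted p from limma was under 0.05. SQSTM1, MAP1LC3B, WIPI1 and NPC1 are red in the columns of all 3 drugs against control, while NPC2 is blue there, and the column of the mix against control is pale.

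After bile duct ligation, the hydrolases and lipid-handling proteins of the lysosomal lumen were higher. Of the 33 genes, 16 rose and 2 fell (adjusted p under 0.05, limma), against 20.5% of all genes higher and 21.1% lower. CBDL and sham livers did not overlap for 20.0% of all genes, 11.9% higher and 8.04% lower. All 8 genes of the lumen rose, with a median log2 change of 0.52. Without CBDL replicate 1 and sham replicate 2, 15 were higher and 3 lower, against 18.3% and 17.4% of all genes, and 16 genes were called the same way in both. Gabarap and Atp6v1a no longer passed there, and Gabarapl1 (higher) and Atg5 (lower) did. Levels were compared as deposited. When each array was centred on its median, every mouse change was lower by 0.12 and the split was 12 higher and 6 lower. After a renewed quantile normalization it was 15 higher and 5 lower.

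Hexa, the alpha subunit of a hydrolase that degrades gangliosides, had 10.76, 11.01 and 11.07 in CBDL livers (lowest, median, highest) against 9.71, 10.05 and 10.13 in sham livers. The groups did not overlap, and the change was 0.99 (SE 0.08, adjusted p = 7.64e-07, limma). Npc2, which carries cholesterol inside the lysosome, had 10.85, 11.10 and 11.47 in CBDL livers against 10.19, 10.30 and 10.45 in sham livers. It was 1.71-fold higher, again with no overlap (adjusted p = 3.59e-05, limma). Gla, the alpha-galactosidase of lysosomal glycolipids, stood at 6.63, 6.78 and 6.95 in CBDL livers against 5.46, 6.02 and 6.16 in sham livers. It was 1.83-fold higher without overlap, although its other 2 probe sets, at lower levels, gave log2 changes of 0.01 and 0.12.

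The cathepsins, proteases of the lysosome, rose by similar amounts. Ctsb had 12.85, 12.94 and 13.02 in CBDL livers against 12.36, 12.39 and 12.47 in sham livers, a 1.45-fold difference (adjusted p = 4.94e-06, limma). Ctsd, an aspartic protease, had 11.83, 11.91 and 11.95 in CBDL livers against 11.25, 11.38 and 11.51 in sham livers. Ctsl, a cysteine protease, had 13.43, 13.55 and 13.63 in CBDL livers against 12.83, 13.12 and 13.20 in sham livers. Neither Ctsb, Ctsd nor Ctsl overlapped between the groups, and their log2 changes were 0.54, 0.51 and 0.49. Ctsa, a carboxypeptidase that also stabilises other hydrolases, was 1.34-fold higher, but its second and dimmer probe set fell by 0.22, and the mean of both gave a log2 change of 0.10 that did not pass. Lipa, the acid lipase that splits cholesteryl esters and triglycerides, was 1.39-fold higher.

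Npc1, the membrane protein that exports cholesterol from the lysosome, had 9.43, 9.67 and 9.87 in CBDL livers against 9.004, 9.19 and 9.51 in sham livers. The groups overlapped at their edges, and the change was 0.46 (SE 0.10, adjusted p = 0.00291, limma). Lamp1 and Lamp2, the main glycoproteins of the lysosomal membrane, were called in different settings. Lamp1 was 1.16-fold higher, a call lost after median centring (0.10). Lamp2 had a log2 change of -0.07 that did not pass (adjusted p = 0.384, limma), and after median centring it was lower by 0.19 and passed. Atp6ap1, an accessory protein of the proton pump that acidifies the lysosome, was 1.33-fold higher.

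Among genes of the autophagosome, Sqstm1 had 11.38, 12.09 and 12.39 in CBDL livers against 11.23, 11.42 and 11.54 in sham livers. All CBDL livers but replicate 1, which lay inside the sham range, were above all sham livers. The difference was 1.57-fold (SE 0.13 on the log2 scale, adjusted p = 0.00199, limma) and the log2 change was 0.75 without CBDL replicate 1 and sham replicate 2. Map1lc3b, which encodes LC3B of the ATG8 family, had 11.28, 11.52 and 11.59 in CBDL livers against 11.02, 11.17 and 11.51 in sham livers. The groups overlapped, and its 1.23-fold rise (adjusted p = 0.013, limma) did not pass after median centring (0.18) or as the mean of its probe sets (0.13). Wipi1, which binds phosphoinositide on the growing membrane, was 1.32-fold higher, and did not pass after renewed quantile normalization (0.25).

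The 2 genes that fell act in the formation of the autophagosome. Atg3, the enzyme that transfers ATG8 proteins to lipid, had 10.45, 10.55 and 10.74 in CBDL livers against 10.80, 10.99 and 11.14 in sham livers, with no overlap and a change of -0.42 (SE 0.07, adjusted p = 0.000645, limma). Ulk1, the kinase that starts autophagy, had 8.96, 9.45 and 9.68 in CBDL livers against 9.52, 9.81 and 9.98 in sham livers, which overlapped, and the change was -0.37. Gabarapl1, another ATG8 gene, had a log2 change of 0.31 that did not pass (adjusted p = 0.0537, limma). It passed without CBDL replicate 1 (0.37) and without sham replicate 5 (0.38), and without CBDL replicate 1 and sham replicate 2 together (0.33). Tfeb had a change of -0.05 (adjusted p = 0.592, limma), which passed as a fall after median centring (-0.16) and after renewed quantile normalization (-0.24).

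**Figure D2:**
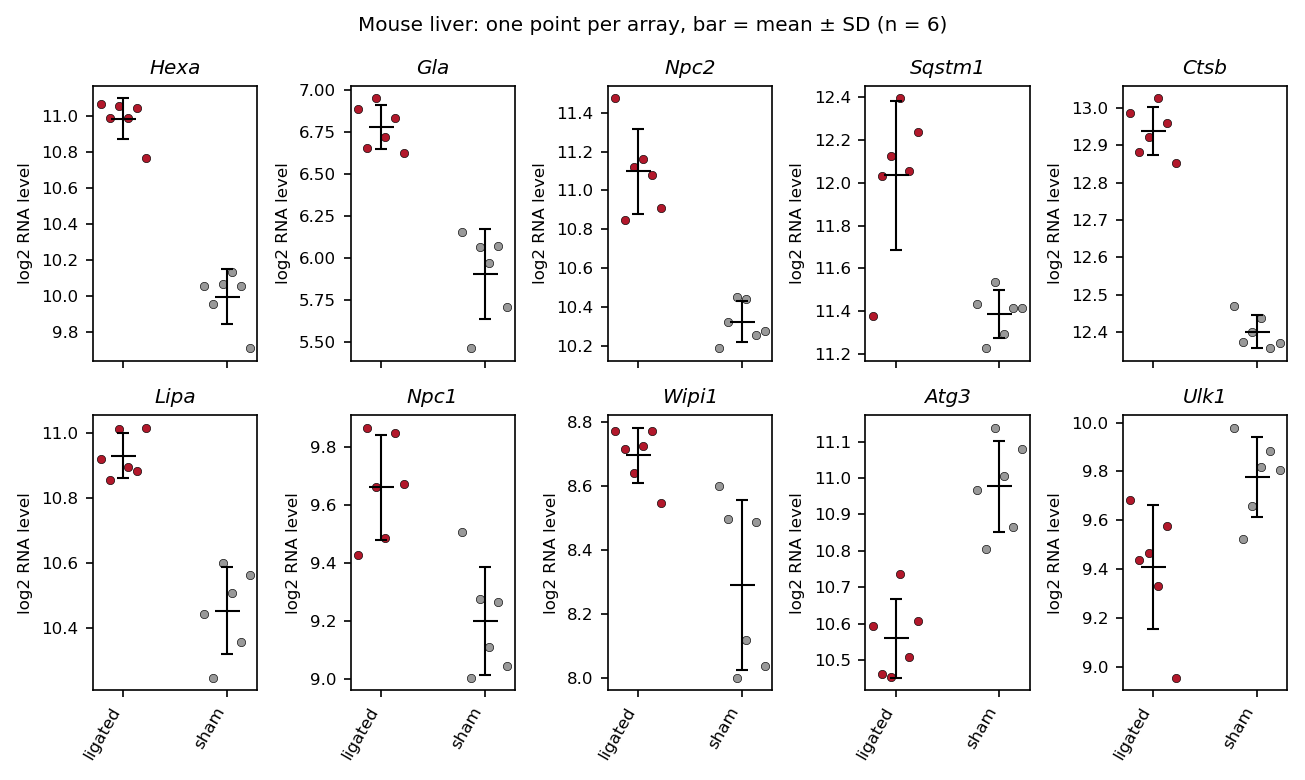
Log2 RNA levels in each of the 6 CBDL livers and 6 sham livers for selected genes, with points for livers and bars for the mean and SD (n = 6). Hexa, Npc2 and Ctsb separate the groups, while Sqstm1 has 1 CBDL liver within the sham range and Atg3 and Ulk1 are lower in CBDL livers.

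In wider lists of the same system in CBDL livers, where 20.5% of all genes were higher and 21.1% lower, 23 of 38 other lysosomal hydrolases rose and 1 fell. Without the 2 livers 22 were higher and 1 lower. Leading members were Ctss, a cathepsin of antigen-presenting cells, at 2.25-fold higher, Arsa, a sulfatase, at 2.00-fold, and Lgmn, legumain, at 1.99-fold. Of 29 other membrane and sorting genes 13 rose and 4 fell, with Gnptab, which makes the mannose phosphate tag of lysosomal enzymes, 2.04-fold higher. Of 13 other proton pump subunits 6 rose and 2 fell, led by Atp6v0d2 at 2.62-fold higher. Of 37 other autophagy genes 8 rose and 2 fell. The median log2 change was 0.35 over the hydrolases and 0.11 over the autophagy genes, against -0.05 over all genes. Rragd, a GTPase that links lysosomal nutrients to the kinase mTORC1, was 11.7-fold higher, the largest change of its list of 25 nutrient-sensing genes, in which 6 rose and 1 fell. The higher calls among autophagy and nutrient-sensing genes were a share near that of all genes. Without the 2 livers 11 membrane and sorting genes were higher and 3 lower, 5 pump subunits higher and 0 lower, 6 autophagy genes higher and 2 lower, and 4 nutrient-sensing genes higher and 3 lower.

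Macrophage markers were higher in the same livers: 13 of 17 rose and 2 fell, with the same counts without the 2 livers, and their mean level was 8.82 to 9.75 in CBDL livers against 7.68 to 8.12 in sham livers. Cd68, a lysosomal membrane protein of macrophages, was 3.50-fold higher and Lyz2 3.12-fold, while Clec4f, a marker of resident Kupffer cells, did not pass (log2 change 0.25). Cholangiocyte markers averaged 6.17 to 7.78 in CBDL livers against 5.08 to 6.31 in sham livers. The highest of these were CBDL replicate 1 and sham replicate 2, and the other livers reached 6.92 (CBDL) and 5.62 (sham). Stellate cell markers averaged 8.66 to 9.15 in CBDL livers against 7.52 to 8.29 in sham livers. In whole tissue, more cells of a type and more RNA per cell cannot be told apart, and the part of these cells in the rise of hydrolase RNA was not tested.

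The bile acid mix alone altered few genes in HepaRG cells, among the 34 as among all genes. Of the 34, 4 rose and 1 fell, against 6.78% of all genes higher and 3.37% lower. The risers were OPTN, ULK1, TFEB and CTSL, and CTSB fell. Median centring gave 4 higher and 3 lower, and renewed quantile normalization 4 higher and 0 lower. Without control replicate 3, 3 genes passed. With culture number as a replicate block, 7 genes passed, the added ones being LAMP2 (-0.21, adjusted p = 0.0434) and CTSA (-0.26, adjusted p = 0.0472), both by limma. LAMP2 also passed as lower after median centring, without the dimmest genes, with another eBayes prior and as the mean of its probe sets (-0.39).

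OPTN, optineurin, a receptor for damaged mitochondria and bacteria, stood at 10.22, 10.31 and 10.21 with the mix against 9.78, 9.78 and 9.77 in control. Every culture with the mix lay above every control, 1.39-fold higher on average (adjusted p = 0.000133, limma). These groups did not overlap for 28.6% of all genes, 17.4% higher and 11.2% lower. CTSL stood at 10.62, 10.74 and 10.69 with the mix against 10.39, 10.34 and 10.32 in control, a 1.26-fold difference without overlap. These 2 calls held whichever culture was left out.

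TFEB stood at 6.85, 6.86 and 7.04 with the mix against 6.67, 6.56 and 6.36 in control. The groups did not overlap and TFEB was 1.31-fold higher (adjusted p = 0.0085, limma), but it did not pass without control replicate 3 (0.30) or mix replicate 3 (0.32). ULK1 stood at 6.64, 6.46 and 6.61 with the mix against 6.15, 5.96 and 6.28 in control, 1.36-fold higher, and did not pass without control replicate 2 (0.36) or mix replicate 1 (0.41). CTSB was 1.20-fold lower (log2 change -0.26), and did not pass without control replicate 1 (-0.22), control replicate 3 (-0.23) or mix replicate 2 (-0.22). SQSTM1 stood at 10.41, 10.48 and 10.51 with the mix against 10.30, 10.51 and 10.37 in control, and its log2 change of 0.08 did not pass (adjusted p = 0.724, limma). For MAP1LC3B the log2 change was -0.03, and for NPC1 it was 0.04.

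Among wider lists, 8 of 39 other autophagy genes rose with the mix and 0 fell, led by TECPR1 at 1.49-fold, a tether between autophagosome and lysosome. Of 15 sterol synthesis genes 10 fell and 0 rose, with HMGCS1, the synthase that starts the mevalonate pathway, 2.03-fold lower. Of 36 other hydrolases 4 rose and 2 fell, near the shares of all genes (6.78% higher and 3.37% lower).

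More of the genes passed with each drug than with the mix, as was so over all genes. With atazanavir 14 of 34 rose and 8 fell, against 22.2% of all genes higher and 13.2% lower. With cyclosporin A 22 rose and 2 fell, against 22.2% higher and 18.5% lower. With nefazodone 19 rose and 6 fell, against 25.0% higher and 20.6% lower, and renewed quantile normalization gave 17 and 9. The median log2 change was 0.12 with atazanavir, 0.42 with cyclosporin A and 0.26 with nefazodone, against 0.01 to 0.04 over all genes. Median centring moved all changes with nefazodone up by 0.10. The 3 drugs share the same control cultures, so their changes against control are not independent of each other. The doses also differ. With 3 cultures a group, a lack of overlap with control was common. It held for 47.1% of all genes with atazanavir, 44.1% with cyclosporin A and 53.5% with nefazodone. In the same order, 28.2%, 24.3% and 28.7% of all genes lay above control without overlap, and 18.9%, 19.8% and 24.7% below.

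The cargo receptor SQSTM1 rose with every drug. It stood at 11.32, 11.44 and 11.17 with atazanavir, at 11.93, 11.80 and 11.58 with cyclosporin A and at 11.87, 11.90 and 11.76 with nefazodone, against 10.30, 10.51 and 10.37 in control. No treated culture reached down to the control range, and the 3 drugs gave 1.89-fold, 2.60-fold and 2.73-fold differences. The smallest of them had adjusted p = 1e-07 by limma. OPTN stood at 10.00, 10.04 and 9.78 with atazanavir, at 10.77, 10.86 and 10.68 with cyclosporin A and at 11.23, 11.15 and 11.20 with nefazodone, against 9.78, 9.78 and 9.77 in control. Cyclosporin A (1.99-fold) and nefazodone (2.66-fold) raised it, and atazanavir did not pass. NBR1, a receptor related to SQSTM1, passed with none of the 3 drugs, at log2 changes of -0.21, -0.10 and -0.03.

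In the ATG8 family the members went separate ways. MAP1LC3B stood at 9.97, 9.99 and 9.86 with atazanavir, at 10.70, 10.50 and 10.44 with cyclosporin A and at 11.40, 11.56 and 11.33 with nefazodone, against 9.35, 9.30 and 9.32 in control. None of these 4 groups overlapped, and the differences were 1.54-fold, 2.34-fold and 4.30-fold (adjusted p = 1.64e-15 for nefazodone, limma). GABARAPL1, which has the same coupling to lipid, stood at 6.27, 6.37 and 6.12 with atazanavir, at 7.66, 6.89 and 7.28 with cyclosporin A and at 6.88, 7.10 and 6.87 with nefazodone, against 6.20, 5.96 and 6.15 in control. It was 2.25-fold higher with cyclosporin A and 1.80-fold higher with nefazodone, and its log2 change of 0.15 with atazanavir did not pass. GABARAPL2 stood at 10.47, 10.49 and 10.36 with atazanavir and at 10.25, 10.19 and 10.20 with nefazodone, against 10.61, 10.62 and 10.70 in control, and it fell with both. GABARAP rose with cyclosporin A and nefazodone, by 0.34 and 0.22 on the log2 scale.

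At the growing membrane, WIPI1 had the largest difference of the 34 genes with nefazodone. It stood at 8.67, 8.71 and 8.71 with atazanavir, at 10.35, 9.70 and 9.98 with cyclosporin A and at 10.98, 11.13 and 10.95 with nefazodone, against 8.19, 8.31 and 8.24 in control. Again none of the 4 groups overlapped, with differences of 1.36-fold, 3.39-fold and 6.83-fold. Its second probe set gave log2 changes of 0.61, 2.24 and 3.07. WIPI2, its relative, and BECN1, a subunit of the lipid kinase complex of autophagy, passed with none of the 3 drugs. For BECN1 the 95% intervals of the log2 change ran from -0.25 to 0.20 with atazanavir, from -0.27 to 0.18 with cyclosporin A and from -0.38 to 0.07 with nefazodone. ULK1 rose with cyclosporin A, at 6.87, 6.65 and 6.73 against 6.15, 5.96 and 6.28 in control. Its log2 change was 0.62 with cyclosporin A, -0.14 with atazanavir and 0.01 with nefazodone, and the differences of cyclosporin A from nefazodone (0.61, adjusted p = 0.00013) and of atazanavir from cyclosporin A (-0.76, adjusted p = 8.8e-06, both limma) passed themselves.

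**Figure D3:**
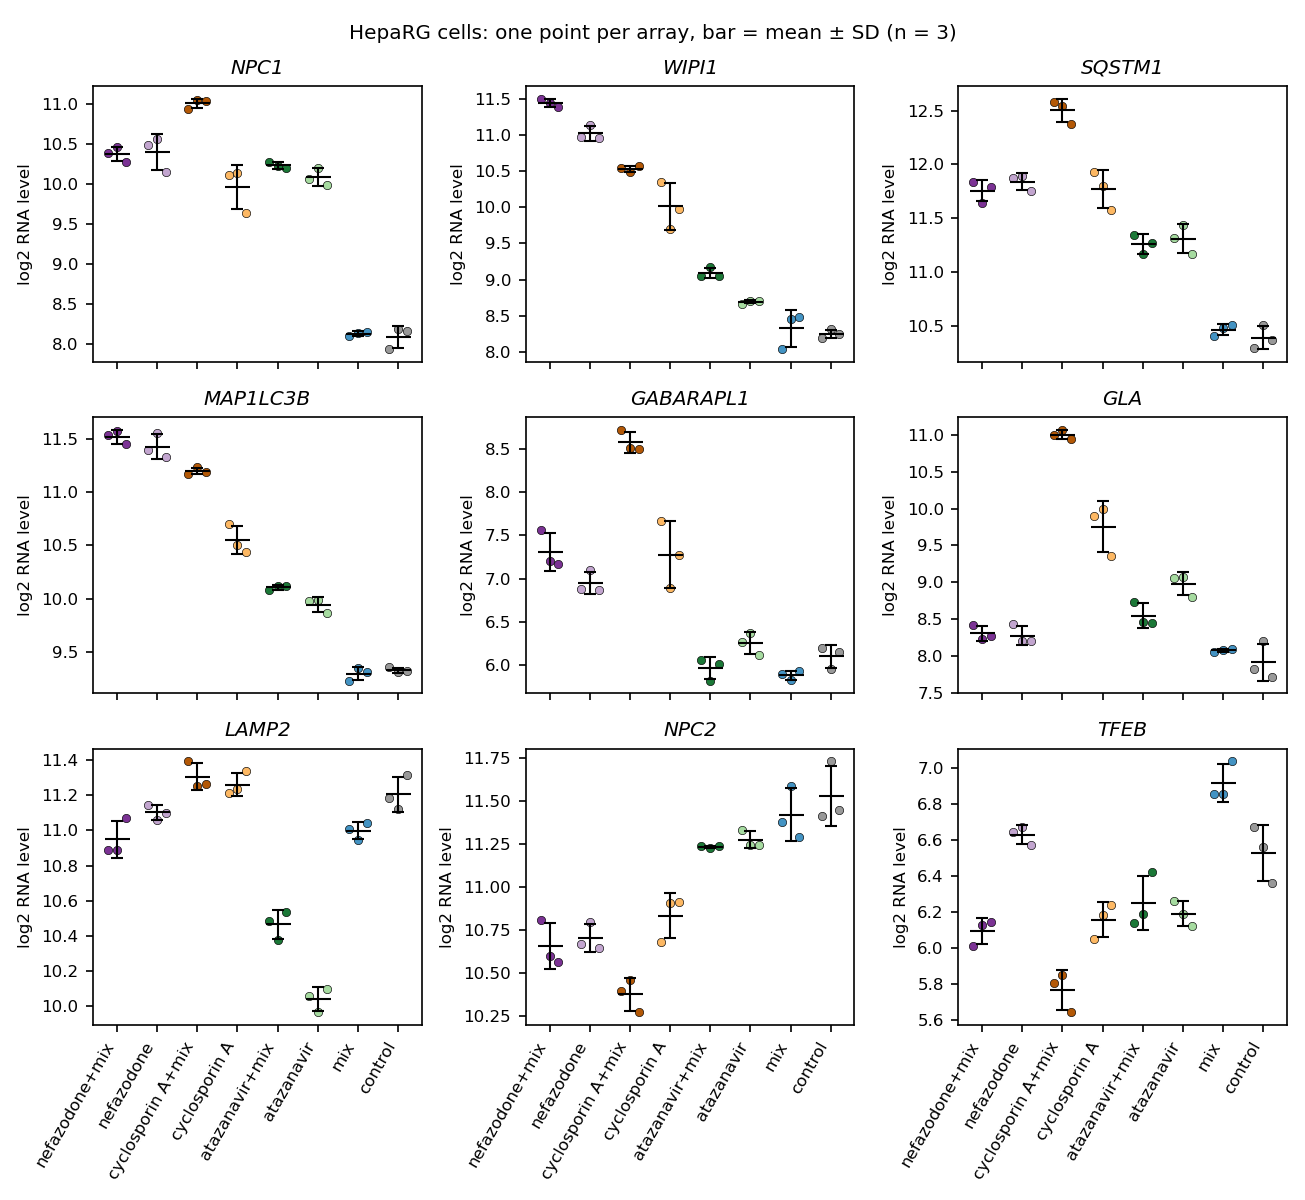
Log2 RNA levels in every HepaRG culture for selected genes, with 3 points a group and bars for the mean and SD (n = 3). For MAP1LC3B and WIPI1 the levels ascend over atazanavir, cyclosporin A and nefazodone, all above control, whereas GLA is highest in cultures with cyclosporin A.

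The genes of the conjugation step rose with few exceptions. All 5 passed as higher with cyclosporin A and with nefazodone, and 4 of 5 with atazanavir. The shares of all genes that were higher were 22.2%, 25.0% and 22.2%, in that order. ATG12, the ubiquitin-like protein joined to ATG5, stood at 9.01, 9.08 and 9.05 with atazanavir, at 9.60, 9.25 and 9.05 with cyclosporin A and at 9.66, 9.70 and 9.63 with nefazodone, against 8.65, 8.77 and 8.85 in control. Every treated culture was above every control, and nefazodone gave 1.87-fold (adjusted p = 1.61e-07, limma). ATG3 stood at 10.91, 10.93 and 10.95 with nefazodone against 10.07, 10.13 and 10.02 in control, 1.81-fold higher. A second ATG3 probe set at a mean level of 3.39 gave -0.46, so that the mean of both (0.20) did not pass. ATG16L1, which directs the conjugation to the membrane, was 1.54-fold higher with cyclosporin A and 1.85-fold with nefazodone. ATG5 was 1.52-fold higher with nefazodone. ATG7, the activating enzyme, lay between 6.66 and 7.00 in the 9 drug-treated cultures against 6.45 to 6.61 in control.

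On the lysosomal membrane NPC1 rose most with each drug. It stood at 10.07, 10.21 and 9.99 with atazanavir, at 10.11, 10.13 and 9.64 with cyclosporin A and at 10.49, 10.57 and 10.15 with nefazodone, against 7.93, 8.19 and 8.16 in control. All 9 treated cultures lay above all control cultures, with differences of 3.98-fold, 3.65-fold and 4.95-fold (SE 0.12 on the log2 scale for each). With atazanavir it had the largest change of the 34 genes (adjusted p = 4.75e-11, limma). MCOLN1, the calcium channel of the lysosome, stood at 7.64, 7.69 and 7.61 with atazanavir, at 7.57, 7.36 and 7.46 with cyclosporin A and at 7.09, 7.30 and 7.13 with nefazodone, against 6.66, 6.84 and 6.87 in control. No drug group overlapped control, and the log2 changes were 0.85, 0.67 and 0.38.

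LAMP2 was the strongest fall with atazanavir. It stood at 10.06, 9.96 and 10.10 with atazanavir against 11.18, 11.12 and 11.31 in control, 2.24-fold lower without overlap (adjusted p = 1.73e-10, limma). With cyclosporin A and nefazodone its log2 changes were 0.06 and -0.10 and did not pass. The gene has 4 probe sets, and with atazanavir the other 3 gave 0.31, -1.19 and -1.13. With nefazodone they gave 0.45, -0.25 and -1.21. The probe sets therefore did not report one common change, and LAMP2 values here and below hold only for the probe set with the highest mean. LAMP1 passed with none of the drugs in the main fit, and its 95% interval with nefazodone ran from -0.12 to 0.15. With cyclosporin A it passed as higher under 4 alternatives, at log2 changes of 0.13 to 0.24. These were renewed quantile normalization, median centring, the mean of its probe sets and another eBayes prior. With atazanavir the mean of its probe sets passed as lower (-0.20).

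In the lumen, CTSL and GLA rose with each drug and NPC2 fell. CTSL stood at 11.16, 11.23 and 11.18 with atazanavir, at 11.38, 11.22 and 11.25 with cyclosporin A and at 11.66, 11.68 and 11.74 with nefazodone, against 10.39, 10.34 and 10.32 in control. It was 1.79-fold, 1.91-fold and 2.53-fold higher, and no drug group overlapped control. GLA stood at 9.06, 9.07 and 8.80 with atazanavir, at 9.90, 9.99 and 9.36 with cyclosporin A and at 8.43, 8.20 and 8.21 with nefazodone, against 7.83, 8.20 and 7.72 in control. Its rise was 2.09-fold with atazanavir and 3.57-fold with cyclosporin A, whereas nefazodone (1.29-fold) overlapped control. NPC2 stood at 11.33, 11.25 and 11.25 with atazanavir, at 10.68, 10.91 and 10.91 with cyclosporin A and at 10.67, 10.79 and 10.64 with nefazodone, against 11.41, 11.73 and 11.45 in control. Every treated culture lay below every control, and nefazodone gave 1.78-fold lower (adjusted p = 2.18e-07, limma), so NPC1 and NPC2, which act on cholesterol in sequence, changed in opposite directions.

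CTSD stood at 9.10, 9.10 and 9.15 with atazanavir, at 9.92, 9.78 and 9.43 with cyclosporin A and at 9.76, 9.86 and 9.70 with nefazodone, against 9.06, 8.9999 and 9.06 in control. It was 1.59-fold higher with cyclosporin A and 1.66-fold with nefazodone, and did not pass with atazanavir. HEXA stood at 9.27, 9.20 and 9.14 with atazanavir, at 10.19, 10.26 and 10.15 with cyclosporin A and at 9.65, 9.69 and 9.65 with nefazodone, against 9.80, 9.77 and 9.74 in control. It fell with atazanavir (-0.57, adjusted p = 2.02e-07, limma), which the mean of its 4 probe sets did not keep (-0.07), and rose with cyclosporin A. CTSA stood at 9.08, 9.14 and 9.03 with atazanavir against 9.49, 9.64 and 9.41 in control, 1.35-fold lower. CTSB rose by 0.23 with atazanavir and by 0.27 with nefazodone. With atazanavir it did not pass without control replicate 2 (0.16) or atazanavir replicate 2 (0.21). With nefazodone its other 4 probe sets gave 0.29, -0.19, -0.55 and -0.74, and the mean of all 5 was -0.18. LIPA lay at 10.96, 10.90 and 10.98 with atazanavir, at 11.00, 11.02 and 11.13 with cyclosporin A and at 10.42, 10.43 and 10.43 with nefazodone, against 10.58, 10.61 and 10.67 in control. It rose with atazanavir and cyclosporin A and fell with nefazodone, whose cultures all lay below control.

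The transcription factors did not rise with any drug alone. TFEB stood at 6.26, 6.19 and 6.12 with atazanavir, at 6.05, 6.18 and 6.24 with cyclosporin A and at 6.65, 6.67 and 6.57 with nefazodone, against 6.67, 6.56 and 6.36 in control. It fell with atazanavir (-0.34, adjusted p = 0.00542) and with cyclosporin A (-0.37, adjusted p = 0.00225, both limma). With cyclosporin A the mean of its 2 probe sets did not pass (-0.11). TFE3 stood at 9.50, 9.45 and 9.32 with atazanavir and at 9.28, 9.20 and 9.12 with nefazodone, against 9.78, 9.74 and 9.67 in control, and it fell with both. These are RNA levels of factors whose activity depends on where in the cell the protein lies.

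Of the proton pump, ATP6V1H, a regulatory subunit, rose with each drug. It stood at 9.38, 9.42 and 9.24 with atazanavir, at 9.26, 9.36 and 9.22 with cyclosporin A and at 9.50, 9.59 and 9.54 with nefazodone, against 8.63, 8.79 and 8.69 in control. The differences were 1.56-fold, 1.49-fold and 1.79-fold without overlap. Its other 2 probe sets have mean levels of 2.57 and 2.98, and the mean of all 3 did not pass with atazanavir (0.18) or nefazodone (0.15). ATP6AP1 stood at 8.60, 8.53 and 8.69 with atazanavir, at 9.41, 9.59 and 9.38 with cyclosporin A and at 9.26, 9.31 and 9.34 with nefazodone, against 9.07, 9.11 and 8.98 in control. It was 1.37-fold lower with atazanavir and above all controls in the other drug groups. ATP6V1A, the catalytic subunit, lay at 9.91, 10.06 and 10.18 with nefazodone against 10.35, 10.49 and 10.49 in control. ATP6V0D1, which links the membrane sector of the pump to its cytosolic sector, stood at 10.19, 10.43 and 10.18 with cyclosporin A against 9.94, 10.05 and 9.95 in control.

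The drugs also differed from each other. Atazanavir against cyclosporin A gave 2 genes higher and 18 lower, where 40.1% of all genes were called, 19.8% higher and 20.3% lower. Atazanavir against nefazodone gave 8 higher and 18 lower, where 39.9% were called, 19.7% higher and 20.1% lower. The share that was higher was near that of all genes. After median centring the split was 5 and 21. Cyclosporin A against nefazodone gave 10 higher and 11 lower, where 37.0% were called, 17.6% higher and 19.4% lower. After renewed quantile normalization the split was 13 and 9. WIPI1 was 2.49-fold lower with atazanavir than with cyclosporin A, and 2.01-fold lower with cyclosporin A than with nefazodone. GLA was 2.78-fold higher with cyclosporin A than with nefazodone (adjusted p = 3e-08, limma). LAMP2, on the probe set used, was 2.33-fold lower with atazanavir than with cyclosporin A.

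In the wider lists, of 39 other autophagy genes, 11 rose and 7 fell with atazanavir, 23 rose and 5 fell with cyclosporin A, and 20 rose and 9 fell with nefazodone. RUBCN, which encodes rubicon, an inhibitor of autophagosome maturation, was 1.65-fold, 1.87-fold and 3.05-fold higher. Of 36 other hydrolases, 7 rose and 18 fell with atazanavir, 11 rose and 11 fell with cyclosporin A, and 6 rose and 15 fell with nefazodone. Over all genes 22.2%, 22.2% and 25.0% were higher with atazanavir, cyclosporin A and nefazodone, and 13.2%, 18.5% and 20.6% lower, and the atazanavir counts of autophagy genes lay near these shares. The protease CTSF was 3.21-fold lower with atazanavir and 3.13-fold lower with nefazodone, while the sialidase NEU1 was 2.14-fold higher with atazanavir and 2.04-fold with cyclosporin A. Of 14 other proton pump subunits 9, 8 and 8 rose and 2, 2 and 4 fell with atazanavir, cyclosporin A and nefazodone. ATP6V0D2 was 18.9-fold higher with nefazodone, and ATP6V0A2 3.54-fold.

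**Figure D4:**
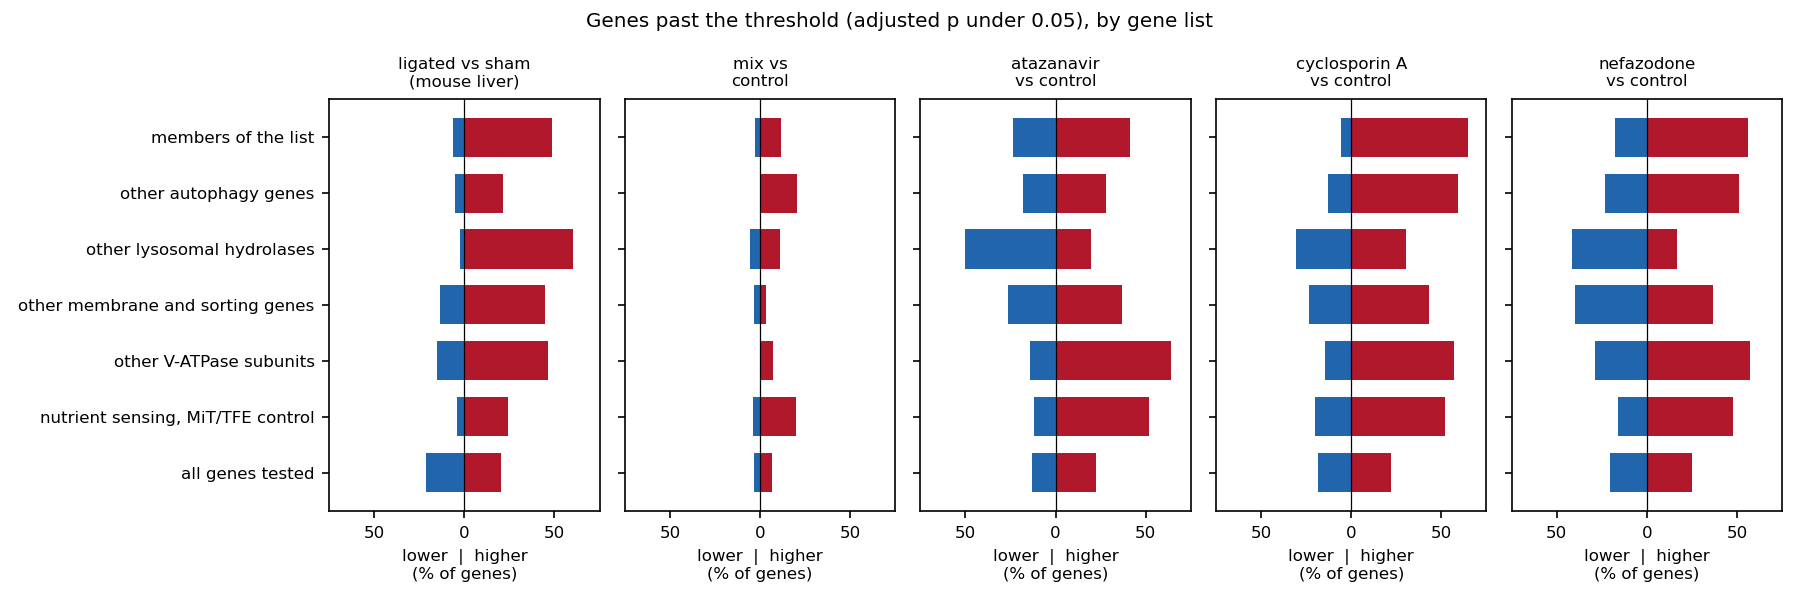
Percent of the genes of each list that were higher (right) and lower (left) at an adjusted p under 0.05 in each comparison, beside the same percents over all genes. In CBDL livers the bar of other hydrolases points to higher, and with atazanavir and nefazodone it points to lower.

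Stress genes moved beside these lists with each drug, and sterol genes with cyclosporin A and nefazodone. Over all genes 22.2%, 22.2% and 25.0% were higher with atazanavir, cyclosporin A and nefazodone, and 13.2%, 18.5% and 20.6% lower. Of 16 genes of the integrated stress response, which is switched on when amino acids are scarce or proteins misfold, 14 rose with atazanavir, 14 with cyclosporin A and 15 with nefazodone, with median log2 changes of 1.07, 1.69 and 2.13. DDIT3, a transcription factor of that response, was 9.87-fold higher with cyclosporin A and 14.5-fold with nefazodone. Of 15 sterol synthesis genes 2 rose and 1 fell with atazanavir, 1 rose and 12 fell with cyclosporin A, and 9 rose and 3 fell with nefazodone. The sterol shares with atazanavir were below those of all genes. Hepatocyte markers fell in 12, 11 and 11 of 12 with the 3 drugs. Macrophage markers averaged 3.64 to 4.25 over all HepaRG cultures. The part of stress or of lost hepatocyte RNA in the changes of the 34 genes was not tested.

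Adding the bile acid mix to cyclosporin A changed more of the genes than adding it to either other drug, as was so over all genes. Between cyclosporin A with mix and cyclosporin A alone, 17 of the 34 genes rose and 6 fell. Over all genes 36.8% passed there, 18.4% higher and 18.4% lower, so the share that fell was near that of all genes. With atazanavir, the mix raised 7 and lowered 6, against 19.2% of all genes (8.95% higher and 10.3% lower). With nefazodone it raised 5 and lowered 6, against 15.5% (7.55% higher and 7.92% lower). The atazanavir count was 8 without atazanavir replicate 2 and 8 without replicate 3 of atazanavir with mix. The nefazodone count was 5 without nefazodone replicate 3, and 6 or 7 without replicate 1 or 2 of nefazodone with mix, and its split was 6 higher and 4 lower after median centring. Median centring raised all changes in the cyclosporin A comparison by 0.16.

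GABARAPL1 stood at 8.72, 8.50 and 8.50 with cyclosporin A and mix against 7.66, 6.89 and 7.28 with cyclosporin A alone. The groups did not overlap, and the gene was 2.46-fold higher (adjusted p = 3e-07, limma). GLA stood at 10.99, 11.07 and 10.95 with cyclosporin A and mix against 9.90, 9.99 and 9.36 with cyclosporin A alone, 2.38-fold higher. NPC1 stood at 10.94, 11.05 and 11.04 with both against 10.11, 10.13 and 9.64 with cyclosporin A alone. SQSTM1 stood at 12.58, 12.54 and 12.38 with both against 11.93, 11.80 and 11.58 with cyclosporin A alone. Each of these 4 genes was higher in all 3 combined cultures than in any culture with the drug alone. Such a lack of overlap held for 41.7% of all genes, 21.2% higher and 20.5% lower. LIPA went the other way, at 10.22, 10.18 and 10.34 with both against 11.00, 11.02 and 11.13 with cyclosporin A alone, 1.74-fold lower.

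Whether the mix acted otherwise with a drug than without it was tested as an interaction, the effect of the mix with the drug minus its effect alone. It passed for 14 of the 34 genes with cyclosporin A, 9 higher and 5 lower. Over all genes 25.9% passed there, 10.9% higher and 15.0% lower, so the share that was lower was near that of all genes. After median centring, which shifts this contrast by 0.21, the split was 19 higher and 2 lower. GABARAPL1 had the largest interaction, 1.51 (adjusted p = 9.3e-06), followed by GLA at 1.09, NPC1 at 1.01 and ATG12 at 0.81, all by limma. LIPA (-0.78) and TFEB (-0.77) had negative ones. Hepatocyte markers moved as well: 9 of 12 passed in the same interaction, 8 of them lower.

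With atazanavir 4 genes passed, where 12.4% of all genes did. With nefazodone 3 passed, where 11.9% of all genes did, 4.57% higher and 7.31% lower. After median centring the nefazodone split was 2 higher and 2 lower in place of 0 and 3, and after renewed quantile normalization it was 1 and 3. LAMP2 stood at 10.48, 10.38 and 10.54 with atazanavir and mix against 10.06, 9.96 and 10.10 with atazanavir alone, and its interaction was 0.63. The change between these groups did not pass as the mean of the LAMP2 probe sets (0.08). TFEB stood at 6.01, 6.13 and 6.15 with nefazodone and mix against 6.65, 6.67 and 6.57 with nefazodone alone, and its interaction was -0.92 (adjusted p = 8e-05, limma). The mix alone raised TFEB, so that its sign with nefazodone was the opposite. CTSL stood at 11.34, 11.39 and 11.42 with nefazodone and mix against 11.66, 11.68 and 11.74 with nefazodone alone, and its interaction was -0.64.

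**Figure D5:**
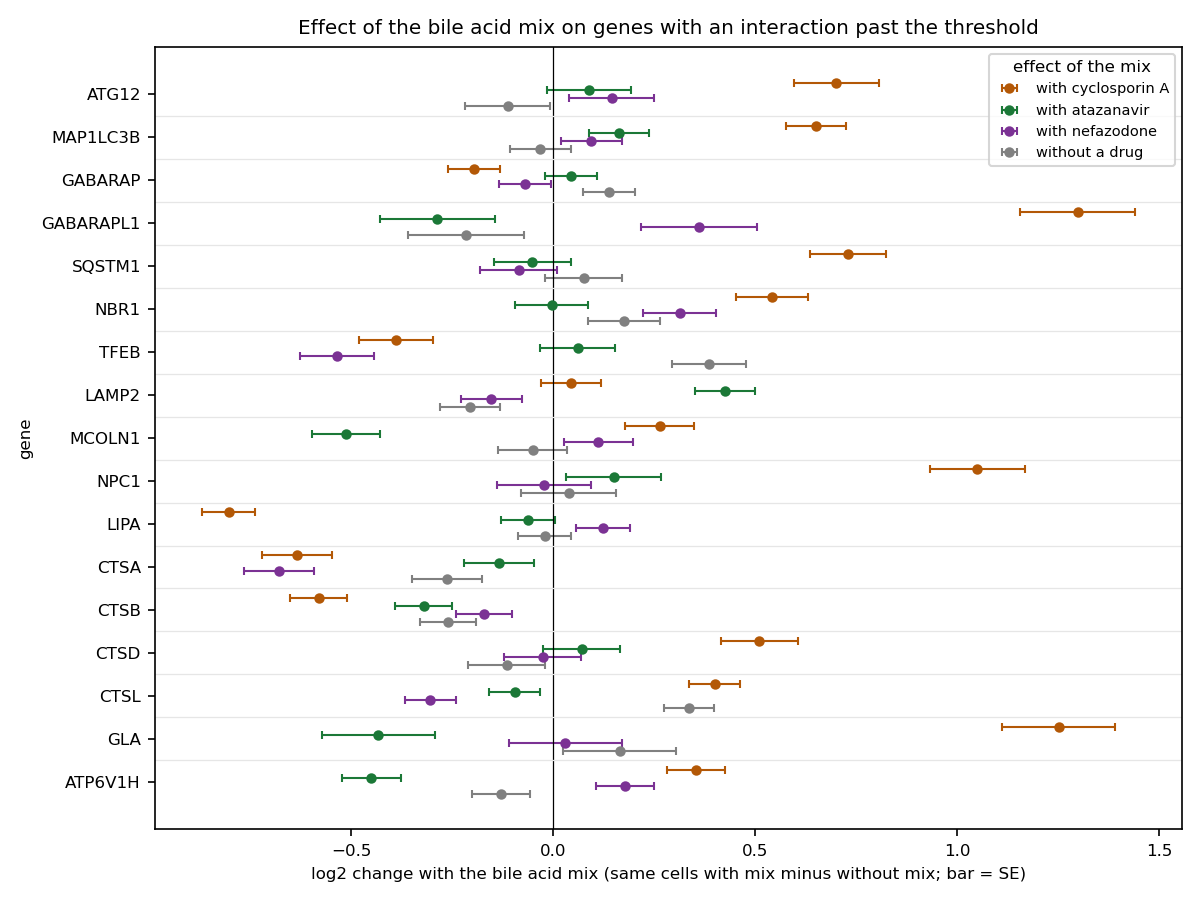
Log2 change on adding the bile acid mix, with each drug and without a drug, for genes with an interaction past the threshold, with bars for the SE from limma. GABARAPL1, GLA and NPC1 have their largest value with cyclosporin A, and TFEB is below 0 with cyclosporin A and nefazodone and above 0 without a drug.

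The combined treatments were also set against the mix alone. Atazanavir with mix raised 13 and lowered 9 of the 34 genes, where 28.5% of all genes were called, 15.1% higher and 13.3% lower. Cyclosporin A with mix raised 23 and lowered 5, where 51.1% were called, 25.7% higher and 25.5% lower. After median centring, which shifts this comparison by 0.26, the split was 29 and 2. Nefazodone with mix raised 16 and lowered 8, where 49.6% were called, 24.8% higher and 24.8% lower. The share that fell with nefazodone and mix was near that of all genes. After median centring, which shifts this comparison by 0.20, the split was 20 and 5. WIPI1 stood at 11.50, 11.44 and 11.38 with nefazodone and mix against 8.04, 8.46 and 8.48 with the mix alone, 8.67-fold higher. GLA was 7.58-fold and NPC1 7.37-fold higher with cyclosporin A and mix than with the mix alone. OPTN lay at 10.50, 10.40 and 10.46 with atazanavir and mix against 10.00, 10.04 and 9.78 with atazanavir alone, at 11.16, 11.11 and 11.15 with cyclosporin A and mix against 10.77, 10.86 and 10.68 without mix, and at 11.66, 11.60 and 11.60 with nefazodone and mix against 11.23, 11.15 and 11.20 without mix. In each of these pairs the cultures with mix were the higher ones. The same held for 17.0% of all genes with atazanavir, 21.2% with cyclosporin A and 15.8% with nefazodone.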

How the data were processed

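Per the submitters' processing notes, the authors made the deposited log2 values per probe set with RMA, which corrects background, quantile-normalizes and summarises probes. The scans were not used, so those steps could not be varied, and the number of arrays limits precision. Total RNA had been amplified from the 3′ end, per the labels' protocols. Probe sets with 1 symbol were kept, 1 a gene (highest mean), and were fitted with limma 3.58.1 in R 4.3.3 as group means, 12 mouse arrays in one fit and 24 HepaRG arrays in another. Tests were 2-sided with Benjamini-Hochberg adjustment over all genes and a threshold of 0.05. Per the series text each mouse group has 6 animals and the cultures came from 3 HepaRG batches of 1 line, so p-values measure the spread between these samples. The members and lists were chosen with earlier results of these data known.

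Named with a change were the key members in the 5 main comparisons and, among those past the threshold, the 14 members with the largest change there and the 6 in every other comparison. Other members named with a change, and others named in a count of 5 or fewer, were chosen after their values were seen. In simulated data, 200 random genes were changed, among 18193 (CBDL against sham) or 19775 (nefazodone against control). Of log2 changes of 0.5, 64% and 51% were recovered, and of changes of 1, 98% in both. These shares moved by several points with another random seed. In the data 41.6% and 45.5% of all genes passed in these comparisons, so the adjustment was stricter in the simulation. The recovered shares therefore do not give the sensitivity in the data.

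Same-numbered cultures deviated together (each correlation over 0.1) for the mix against control (0.19 to 0.26), nefazodone against control, nefazodone with mix against nefazodone, and cyclosporin A with mix against the mix. The values given are from the fit without the block, and blocked values are given where they change a call there. Alternatives were a replicate block, renewed quantile normalization, median centring, the mean of all probe sets, a filter on the dimmest 1 in 3 genes, another eBayes prior, a fit on the compared groups only, and leaving out each array. Leaving out 2 mouse arrays together was planned for the members, and was added for the wider lists after seeing the data.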

Additional observations from a re-analysis of the deposited data

Results flagged for a closer look

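Of 66 sets of 6 livers (33 genes in each group), 6 held 1 liver far from the others, where chance flags about 1 in 20. In CBDL replicate 1 Sqstm1 was at 11.3802, below the other CBDL livers at 12.03 to 12.39. In CBDL replicate 6 Map1lc3b was at 11.2782, where the others lay at 11.48 to 11.59, and Hexa at 10.764, where the others lay at 10.99 to 11.07. Sham replicate 5 was high for Gabarap at 12.1622, Lamp1 at 12.7658 and Atp6v0d1 at 10.8226, where the other sham livers reached 12.02, 12.69 and 10.54. Between 3′ and 5′ control probe sets, a measure of RNA quality, sham replicate 5 had the largest log2 differences of the mouse arrays. They were 0.52 for Gapdh and 1.40 for actin, followed by 0.48 and 1.24 in sham replicate 4. The part of RNA quality in these flags was not tested.

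In 21 cases the effect of the bile acid mix in the presence of a drug differed from its effect without one, by limma's interaction term. With atazanavir these were LAMP2 (0.6317), CTSL (-0.4314), MCOLN1 (-0.4617) and ATP6V1H (-0.3212). With nefazodone they were CTSA (-0.4157), CTSL (-0.6405) and TFEB (-0.9192). With cyclosporin A the positive ones were GABARAPL1 (1.514), GLA (1.0864), NPC1 (1.0116), ATG12 (0.8138), MAP1LC3B (0.6823), SQSTM1 (0.6548), CTSD (0.6253), ATP6V1H (0.4823) and NBR1 (0.3665). The negative ones there were LIPA (-0.7814), TFEB (-0.7741), CTSA (-0.3722), GABARAP (-0.3349) and CTSB (-0.3204). Over all genes the interaction passed for 12.4% with atazanavir, 11.9% with nefazodone and 25.9% with cyclosporin A. The last was 10.9% higher and 15.0% lower, and the share of negative ones among the listed genes was near the latter. With atazanavir and with nefazodone, the share of the listed genes that passed was no higher than that of all genes. ATP6V1H with atazanavir lost its call without 8 of the 12 arrays taken singly, with values between -0.34 and -0.28. It also did not pass after renewed quantile normalization, after median centring, with a fit on the compared groups only, or as the mean of its probe sets, which was -0.0242. CTSA with nefazodone lost its call without 6 of the 12 arrays, with values between -0.41 and -0.35, after median centring (-0.3241) and with a fit on the compared groups only.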

How the results depend on the processing

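Of 155 named changes, 120 kept direction and side of the threshold under every alternative run, and 2117 of 2207 alternative values did. Signs turned for small changes that had not passed, and for CTSB. Leaving out single arrays, against control, gave MAP1LC3B -0.0581 to 0.0011, WIPI1 -0.0023 to 0.2222 and NPC1 -0.0414 to 0.0846 with the mix, CTSB -0.0185 to 0.0837 with cyclosporin A, and ULK1 -0.0756 to 0.0834 and LAMP1 -0.0361 to 0.0635 with nefazodone. Median centring gave NPC1 -0.0153 with the mix and LAMP2 0.0008 with nefazodone. The mean of all probe sets gave LAMP2 -0.1143 and CTSB -0.0973 with cyclosporin A, and CTSB -0.1835 with nefazodone. Counts of genes past the threshold moved for the mix against control (3 with a fit on those groups only, 3 to 4 without single arrays), for the mix with atazanavir (8 with the mean of probe sets, 8 to 11 without single arrays), and for the mix with nefazodone (6 with a fit on those groups only, 5 to 8 without single arrays). The nefazodone interaction count was 5 without the dimmest genes and 5 with the replicate block. Fits on fewer arrays have fewer degrees of freedom. Otherwise the cause was not tested. Where the numbers pair the cultures, the replicate block changed no call other than LAMP2 and CTSA with the mix. Elsewhere it added calls in the interactions (GLA with atazanavir, LAMP2 with cyclosporin A, GABARAPL1 and ATP6V1H with nefazodone) and removed ATG16L1 and CTSB in atazanavir against cyclosporin A and ATG5 in cyclosporin A against nefazodone. The mouse numbers did not pair (correlations of -0.22 to 0.09).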

Other observations

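The genes named here were chosen after their values were seen, and all passed the limma threshold where a fold is given. Of 25 genes that sense nutrients at the lysosome or control TFEB and its relatives, in HepaRG cells 13 rose and 3 fell with atazanavir, 13 rose and 5 fell with cyclosporin A, and 12 rose and 4 fell with nefazodone, while 5 rose and 1 fell with the mix alone. Over all genes 22.2%, 22.2% and 25.0% were higher with these drugs and 13.2%, 18.5% and 20.6% lower. DEPTOR, an inhibitor of the kinase mTOR, was 1.84-fold lower with atazanavir, 3.77-fold lower with cyclosporin A and 9.92-fold lower with nefazodone. SESN2, a leucine sensor, was 1.69-fold higher with atazanavir, 2.28-fold with cyclosporin A and 3.78-fold higher with nefazodone. SESN2 and DDIT4 are also in the list of the integrated stress response, so the counts of the 2 lists share genes. FNIP2, a partner of folliculin, was 1.82-fold higher with the mix, 1.58-fold with atazanavir, 1.75-fold with cyclosporin A and 2.99-fold with nefazodone. Of 30 other lysosomal membrane and sorting genes, 11 rose and 8 fell with atazanavir, 13 rose and 7 fell with cyclosporin A, and 11 rose and 12 fell with nefazodone. CTNS, the cystine exporter of the lysosome, was 1.53-fold higher with atazanavir, 2.19-fold with cyclosporin A and 2.15-fold with nefazodone. LAPTM4B, a lysosomal membrane protein, was 2.35-fold lower with cyclosporin A and 2.34-fold lower with nefazodone.

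Targets of NRF2, a factor of the oxidative stress response that binds the same inhibitor as SQSTM1, rose in CBDL livers in 5 of 11 cases and fell in 0, with the same counts without CBDL replicate 1 and sham replicate 2, where 20.5% of all genes were higher and 21.1% lower. Srxn1, sulfiredoxin, was 2.98-fold higher and Nqo1, a quinone reductase, 2.69-fold. In HepaRG cells, of 12 such genes 5 rose and 2 fell with atazanavir, 5 rose and 1 fell with cyclosporin A, and 7 rose and 1 fell with nefazodone, against the shares of all genes given above. SLC7A11, the cystine importer, was 4.34-fold higher with atazanavir, 6.29-fold with cyclosporin A and 7.60-fold with nefazodone. It is also induced by the integrated stress response. In CBDL livers, of 15 genes of that response 4 rose and 5 fell, with Atf3 3.45-fold higher, and of 16 sterol synthesis genes 0 rose and 4 fell. Without those 2 livers the counts were 3 and 3, and 0 and 3.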
